A study of Rattus norvegicus with 2 samples.

Results

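MHC class II and Cd74 are described here by 7 genes, which were taken by symbol from the gene lists of both libraries and make up 7 of the 18147 genes listed for both. They are Cd74 (ENSRNOG00000018735), RT1-Da (ENSRNOG00000032844), RT1-Db1 (ENSRNOG00000033215), RT1-Ba (ENSRNOG00000000451), RT1-Bb (ENSRNOG00000032708), RT1-DMa (ENSRNOG00000047864) and RT1-DMb (ENSRNOG00000051002). All 7 were found in both lists, and 5 of them carried nearly all of the counts. The study compared cartilage of Lewis rats with collagen-induced arthritis (CIA), which had received type II collagen with complete Freund's adjuvant and were collected on day 14, with cartilage of Lewis rats that had received no treatment, which the design text calls sham. A collection day is given for CIA only, so whether the control was matched in time is unknown. Each group was 1 single-cell RNA library, and the labels do not say how many animals were behind it. No difference between CIA and control therefore has a replicate check, no test was made, and every interval below covers counting error only.

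MHC class II molecules are surface pairs of an alpha and a beta chain that show peptides from taken-up proteins to CD4+ T cells. The rat has a pair of classical class II molecules, RT1-D (alpha chain RT1-Da, beta chain RT1-Db1) and RT1-B (alpha chain RT1-Ba, beta chain RT1-Bb). Cd74, the invariant chain, holds the new pairs together, blocks their groove and leads them to the endosome, where RT1-DM, made of RT1-DMa and RT1-DMb, exchanges the last piece of Cd74 for a peptide. Dendritic cells, B cells and activated macrophages are known for making class II, and the coactivator Ciita, which acts through proteins bound at paired promoter elements named the X box and the Y box, is known from human and mouse to switch the genes on together.

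The promoters are shown because the chains were found to vary together from cell to cell, as described below, and the paired elements are what these genes are known to share. The 4 sequences run 5′ to 3′ on the strand of each gene just before its start and come from RefSeq (GRCr8): RT1-Da at chr20:4515280-4515384 on the plus strand, RT1-Db1 at chr20:4560193-4560297 on the minus strand, RT1-Ba at chr20:4576922-4577026 on the plus strand and RT1-Bb at chr20:4604149-4604253 on the minus strand. Capitals mark AGCAAC, the core of the X box, GATTGG, the core of the Y box, and CCAATC, which is GATTGG on the other strand.
RT1-Da: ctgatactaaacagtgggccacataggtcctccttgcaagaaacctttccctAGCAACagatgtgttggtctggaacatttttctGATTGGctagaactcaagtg
RT1-Db1: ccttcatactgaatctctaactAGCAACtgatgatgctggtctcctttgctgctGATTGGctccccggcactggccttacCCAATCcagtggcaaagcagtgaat
RT1-Ba: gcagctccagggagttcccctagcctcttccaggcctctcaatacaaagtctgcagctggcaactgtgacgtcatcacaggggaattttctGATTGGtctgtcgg
RT1-Bb: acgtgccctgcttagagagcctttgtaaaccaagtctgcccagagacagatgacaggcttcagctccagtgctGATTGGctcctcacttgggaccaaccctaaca
All 4 held GATTGG, and RT1-Da and RT1-Db1 also held AGCAAC, which began 33 bases before GATTGG in RT1-Da and 32 bases before it in RT1-Db1. Over both strands of the 250 bases before the start, GATTGG was found in 4452 of 33469 promoters (13.3%) and AGCAAC in 4050 (12.1%). A single match is thus common. Among the 6 members with a promoter in the table, 5 held GATTGG and 3 held AGCAAC. The ordered pair, AGCAAC and then GATTGG with starts 25 to 40 bases apart, a window chosen after the member sequences had been seen, occurred in 11 of the 33469 promoters (0.0329%). Of those 11 genes, 6 were class II genes (RT1-Da, RT1-Db1, RT1-Db2, RT1-DOa, RT1-DOb and RT1-Ha). RT1-Da and RT1-Db1 were among the sequences that set the window, and the share of class II genes over all promoters was not counted. Only 2 of the 6 members held the pair, and Cd74 held AGCAAC but not GATTGG. A match describes these letters only, and the lack of one says nothing about binding.

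The CIA library held 8622 barcodes with a median of 10541 unique molecular identifiers (UMIs, each marking 1 captured RNA molecule), and the control library 5456 barcodes with a median of 11873. After removal of cells high in mitochondrial UMIs and of called doublets, 8409 CIA and 5349 control cells were kept. The libraries shared 51 barcodes, against 52.4 expected if all 884736 combinations of the barcode blocks seen could occur, and the profiles of shared barcodes had a median correlation of -0.01. The barcodes were built of blocks, unlike those of the kit that the labels name. Cells were sorted in silico into gates, that is, by the UMIs of marker genes per 10000 UMIs of the cell, with limits set on these data, so a gate is a range and not a cell type of its own. Near the C1q limit of 5, 119 CIA and 42 control cells lay between 2.5 and 5 and 97 CIA and 40 control cells between 5 and 10. Near the Fcnb limit of 5, 55 CIA and 24 control cells lay below and 44 CIA and 32 control cells above over the same spans, and near the Spp1 limit of 20, 221 CIA and 86 control cells lay between 10 and 20 and 255 CIA and 73 control cells between 20 and 40. At least 79.1% of the cells of each macrophage and monocyte gate carried each of the 5 shared markers (Csf1r, Cd68, Aif1, Laptm5 and Cybb), and all 8 endothelial markers were present in most endothelial cells. In fibroblasts 2 of 4 markers were in at least 50% of the cells, the least common in 31.7% in CIA and 33.2% in control. In pericytes 3 of 5 and in osteoclasts 1 of 3 markers reached that share. These markers set the gates, as did the dendritic and B-cell markers named below, so their presence is no check of the labels. Lyz2, a lysozyme of myeloid cells, was also seen at a median of 12.3 UMIs per 10000 in CIA fibroblasts and 6.76 in control fibroblasts. Whether these UMIs came from the fibroblasts or from free RNA, that is, RNA released by other cells, was not tested.

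Class II was high in macrophages and monocytes, and within them in some cells and not in others. The summed level of the 7 genes had its highest median in C1q-expressing macrophages (C1q, the first complement component, marks tissue macrophages), at 359 UMIs per 10000 in CIA (897 cells) and 287 in control (345 cells). C1q-low macrophages with little Spp1 (osteopontin, a secreted matrix protein) had a median of 177 in CIA (792 cells) and 215 in control (408 cells). Spp1-high macrophages low in C1q had a median of 45 in CIA (1215 cells) and 42.3 in control (218 cells). Monocytes marked by Fcnb, a ficolin of the bone marrow myeloid lineage, had a median of 135 in CIA (203 cells) and 18.4 in control (172 cells).

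Outside these gates and a small gate of cells with dendritic markers the medians were low. Endothelium had a median of 3.96 per 10000 in CIA (527 cells) and 3.08 in control (643 cells). Fibroblasts had 3.69 in CIA (2604 cells) and 2.89 in control (1921 cells), Prg4-high lining cells 3.67 in CIA (1339 cells) and 2.84 in control (489 cells), and chondrocytes 4.45 in CIA (39 cells) and 2.83 in control (342 cells). Osteoclasts, which come from the monocyte lineage and here carried Acp5, Ctsk and Atp6v0d2 in every cell but Ocstamp in 38.6% of CIA and 43.8% of control cells and Calcr in 7.14% of CIA and 6.25% of control cells, were as low, with 5.13 in CIA (70 cells) and 4.48 in control (16 cells). Ordered by median, the quartile ranges of each gate and the next one met in both libraries, so no 2 neighbours in the order were apart beyond the spread of their cells.

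**Figure D1:**
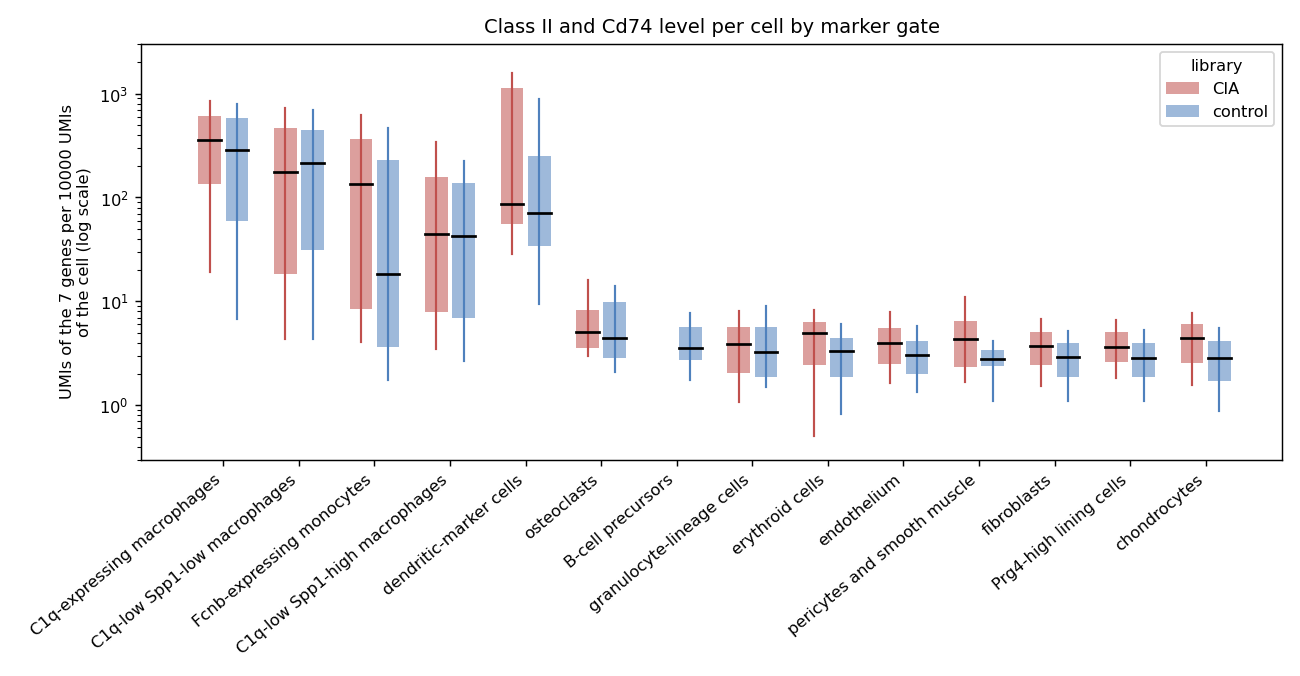
Summed level of the 7 class II genes per cell, in UMIs per 10000 on a log axis, by gate, with CIA left of control. Boxes span the quartiles, lines the 10th to the 90th percentile and black marks the median; gates with under 10 cells in a library are not drawn. Medians lie between 18.4 and 359 in the macrophage and monocyte gates and near 3 to 5 in stroma, endothelium and osteoclasts.

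Single cells spread widely within each gate. The middle 50% of C1q-expressing macrophages lay between 135 and 614 per 10000 in CIA and between 58.9 and 584 in control, with the highest cell at 1704 in CIA and 1470 in control. Spp1-high macrophages lay between 7.90 and 157 in CIA and between 6.99 and 137 in control, and Spp1-low cells between 18.2 and 461 in CIA and between 31.6 and 448 in control. In monocytes the quartiles were 8.49 and 364 in CIA and 3.64 and 231 in control. In Spp1-high macrophages and monocytes of both libraries the lower quartile thus lay under 10, where most fibroblasts lay, and the upper quartile above 100.

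A limit of 100 per 10000, which 8 of 2604 CIA and 3 of 1921 control fibroblasts reached, was used to call a cell class II-high. The share of high cells in C1q-expressing macrophages was 79.0% in CIA (exact binomial 95% interval 76.2 to 81.7) and 71.0% in control (65.9 to 75.7). It was 60.7% in CIA (57.2 to 64.2) and 62.3% in control (57.4 to 67.0) for Spp1-low macrophages, and 35.9% in CIA (33.2 to 38.7) and 33.0% in control (26.8 to 39.7) for Spp1-high macrophages. The intervals overlapped in both C1q-low gates. Cells under 10 per 10000, the range of most stromal cells, made up 6.69% of C1q-expressing macrophages in CIA and 14.8% in control, 19.8% of Spp1-low macrophages in CIA and 19.1% in control, and 28.5% of Spp1-high macrophages in CIA and 29.4% in control. Among Spp1-high macrophages the small difference in high cells, 2.86 percentage points, depended on the gate. It was 11.8 points with marker limits doubled. It was 12.3 points in the Leiden cluster assigned to these cells, with medians of 54.0 in CIA and 20.5 in control, but only 55.6% of the gated cells of that cluster were Spp1-high macrophages, and 500 were Spp1-low and 290 C1q-expressing macrophages.

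**Figure D2:**
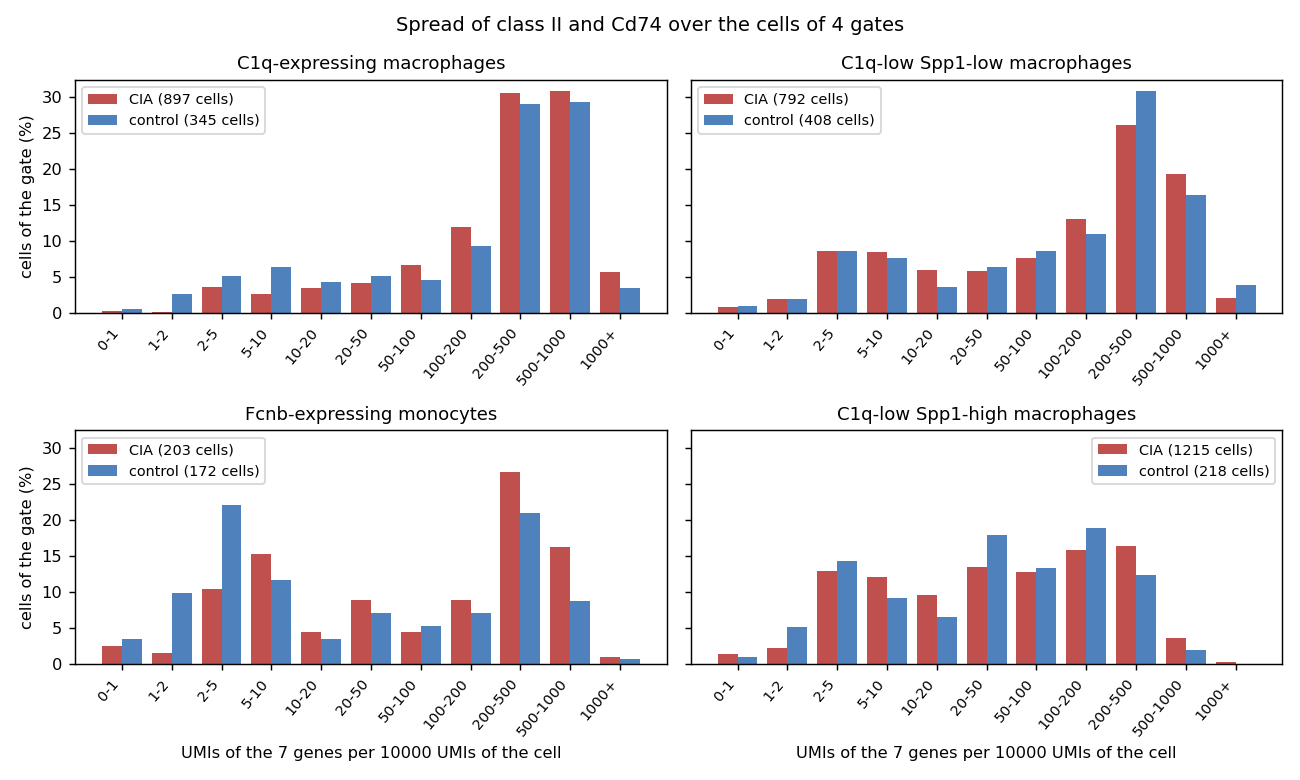
Share of cells (percent, y axis) by summed class II level (UMIs per 10000, x axis, in unequal ranges) in the macrophage and monocyte gates, with CIA before control. Under 10 lie 29.6% of CIA and 47.1% of control monocytes, and C1q-expressing macrophages lie mostly at 100 or more.

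The 5 well-counted members moved as one block. Over the cells of C1q-expressing macrophages, each thinned to 4000 UMIs, the 10 pairs of members had a median Pearson correlation of 0.91 in CIA (897 cells) and 0.92 in control (345 cells). The median was 0.84 in CIA and 0.81 in control for Spp1-high macrophages, 0.91 in both libraries for Spp1-low macrophages, and 0.87 in CIA and 0.88 in control for monocytes. In fibroblasts the same median was 0.11 in CIA and 0.09 in control, on counts too sparse to read. These coefficients describe cells of 1 library each, which may share its free RNA, and the part of free RNA in them was not tested.

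Cd74, the invariant chain, gave 42.0% of the member UMIs of C1q-expressing macrophages in CIA and 43.2% in control. Its median in these cells was 149 per 10000 in CIA (quartiles 60 and 262) and 131 in control (29.4 and 253). In Spp1-high macrophages the median was 23.6 in CIA and 22.0 in control, in Spp1-low macrophages 79.7 in CIA and 98.7 in control, and in monocytes 66.8 in CIA and 12.9 in control. After thinning to 4000 UMIs, a Cd74 UMI was left in 97.0% of CIA and 93.0% of control C1q-expressing macrophages. In fibroblasts it was left in 49.8% of CIA and 41.8% of control cells, and how much of this came from free RNA was not tested. Before thinning the shares were 99.1% in CIA and 98.0% in control for these macrophages, at median depths of 8995 and 12907 UMIs, and 82.4% in CIA and 79.9% in control for fibroblasts, at 10940 and 12837. Without thinning, the presence of a Cd74 UMI separated these types less than it did at equal depth.

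The RT1-D chains followed Cd74. RT1-Da, the alpha chain, had a median of 59.0 per 10000 in CIA and 48.2 in control C1q-expressing macrophages, 5.59 in CIA and 4.90 in control Spp1-high macrophages, 29.8 in CIA and 33.1 in control Spp1-low macrophages, and 24.3 in CIA and 1.82 in control monocytes. RT1-Db1, the beta chain, had 73.4 in CIA and 58.3 in control, 6.39 in CIA and 5.57 in control, 29.6 in CIA and 36.6 in control, and 12.2 in CIA and 1.84 in control for the same gates in the same order. After thinning, RT1-Da was left in 91.4% of CIA and 85.8% of control C1q-expressing macrophages, against 22.2% of CIA and 16.7% of control fibroblasts. RT1-Db1 has a close copy, RT1-Db2, which was counted 5 times in CIA and 8 times in control C1q-expressing macrophages; the rule by which reads common to both were assigned is unknown here.

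The RT1-B chains showed the same order of gates. RT1-Ba, the alpha chain, had a median of 30.4 per 10000 in CIA and 26.1 in control C1q-expressing macrophages, 3.34 in CIA and 2.93 in control Spp1-high macrophages, 17.3 in CIA and 19.0 in control Spp1-low macrophages, and 9.58 in CIA and 1.47 in control monocytes. RT1-Bb, the beta chain, had 34.4 in CIA and 26.9 in control, 4.13 in CIA and 3.21 in control, 18.6 in CIA and 18.3 in control, and 10.8 in CIA and 1.22 in control for these gates. In Spp1-low macrophages the RT1-Bb medians thus ran the other way from those of the other 4 genes, by less than the spread of the cells.

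RT1-DMa and RT1-DMb, the peptide editor, were at the edge of detection. RT1-DMa had a UMI in 7 of 897 CIA and 4 of 345 control C1q-expressing macrophages, and RT1-DMb in 5 of 897 CIA and 1 of 345 control. In endothelium neither was seen, in 0 of 527 CIA cells, which allows a share of cells with a UMI of up to 0.569%, and in 0 of 643 control cells, which allows up to 0.467%; these limits say nothing on cells expressing the gene. Fibroblasts had no UMI of either gene in 2604 CIA cells and 1 UMI of RT1-DMa in 1921 control cells. With so few UMIs no comparison between the libraries was possible for these genes, although their partners were among the most counted transcripts of the same cells.

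**Figure D3:**
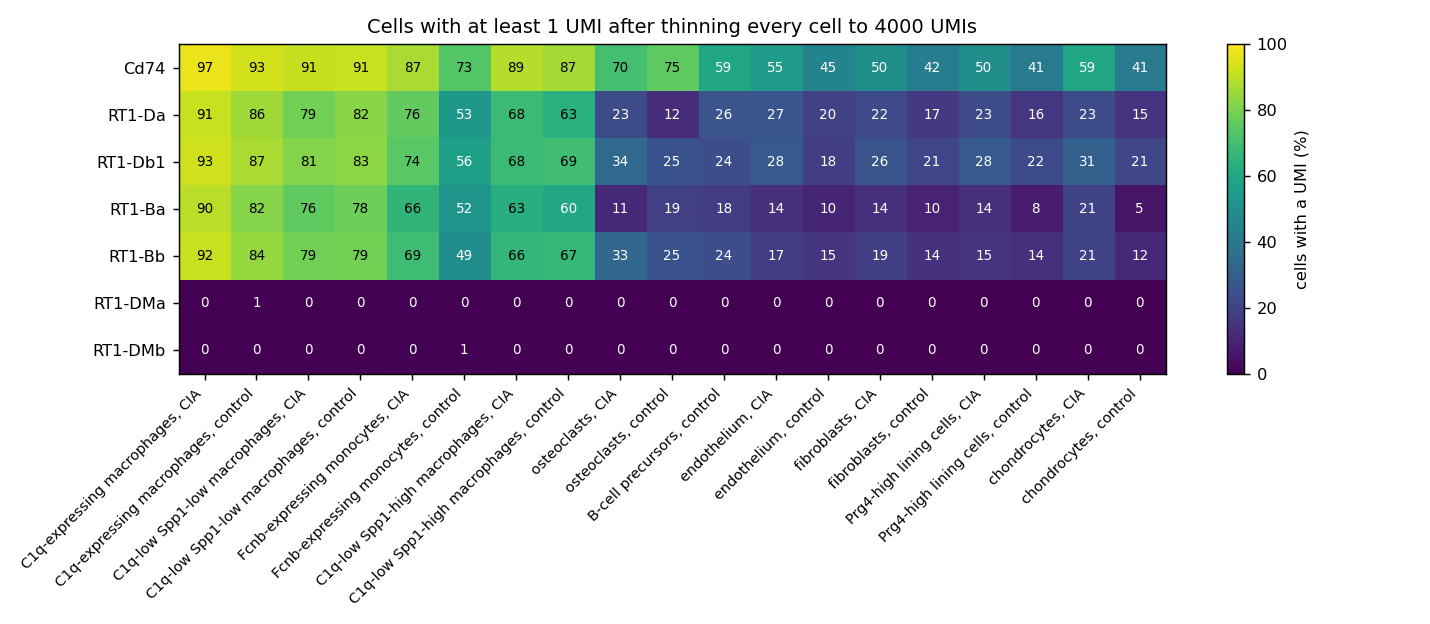
Share of cells (percent, colour and printed value) with at least 1 UMI of each gene after each cell was thinned to 4000 UMIs, with genes down the page and gates across it, CIA left of control. Cd74 remains in 97.0% of CIA and 93.0% of control C1q-expressing macrophages and in 49.8% of CIA and 41.8% of control fibroblasts, and RT1-DMa and RT1-DMb are near 0 throughout.

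Members were among the most uneven genes of these cells. The coefficient of variation over cells of RT1-Db1 was 1.65 in CIA Spp1-high macrophages, rank 3 of the 144 genes with a mean of at least 10 per 10000, whose median was 0.428. In control Spp1-high macrophages it was 1.56, rank 7 of 153. For Cd74 it was 1.33 in CIA, rank 7, and 1.22 in control, rank 10. In C1q-expressing macrophages, where most cells were high, Cd74 was less uneven, with 0.756 in CIA, rank 28 of 141, and 0.840 in control, rank 37 of 156.

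Among C1q-low macrophages class II was lower in each higher range of Spp1. Cells without Spp1 or with under 1 UMI per 10000 had a median class II level of 404 in CIA (67 cells) and 367 in control (121 cells). The next ranges, 1 to 5, 5 to 20 and 20 to 100, had medians of 253, 138 and 64.5 in CIA and of 246, 90.2 and 48.3 in control. At 100 or more the median was 34.9 in CIA (575 cells) and 30.7 in control (64 cells). The share of high cells over the 5 ranges was 76.1%, 65.5%, 54.8%, 42.7% and 28.3% in CIA, and 73.6%, 66.9%, 48.3%, 37.7% and 21.9% in control. Both libraries thus showed the same order. Median depth went the other way, at 6967 UMIs in the lowest and 12592 in the highest range in CIA and at 10968 and 19759 in control, and its part in the result was not tested. The ranges of Spp1, Fcnb and C1q were chosen after these data had been seen.

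In C1q-expressing macrophages the libraries differed in how class II ran with the amount of C1q. In CIA the median class II level over the C1q ranges 5 to 10, 10 to 50, 50 to 100 and 100 or more was 204, 308, 449 and 499 (97, 411, 195 and 194 cells). In control it was 335, 288, 280 and 219 (40, 176, 85 and 44 cells). The quartiles of the highest range were 219 and 782 in CIA and 15.1 and 652 in control. The share of high cells in that range was 83.5% in CIA (77.5 to 88.4) and 59.1% in control (43.2 to 73.7). In the lowest range it was 68.0% in CIA (57.8 to 77.1) and 77.5% in control (61.5 to 89.2). The intervals of the lowest and highest ranges overlapped in control but not in CIA. Median depth in the lowest and highest range was 8974 and 7489 UMIs in CIA. In control it was 15735 and 10092, and the part of depth in the result was not tested.

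**Figure D4:**
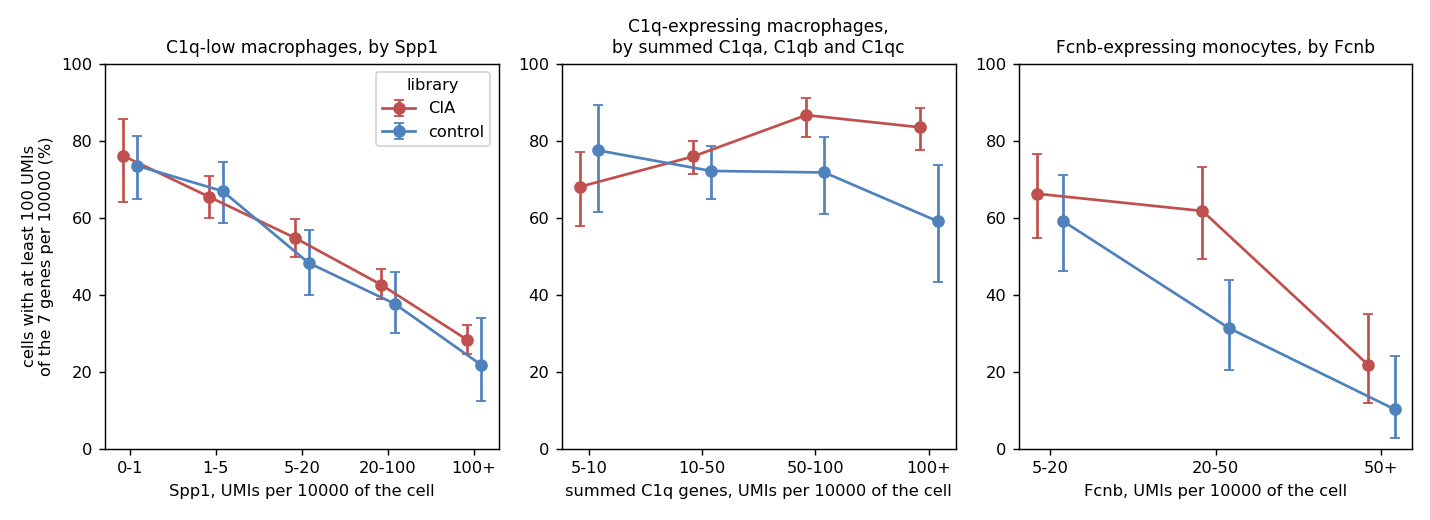
Share of cells (percent, y axis) at 100 or more class II UMIs per 10000 over ranges of Spp1, C1q and Fcnb (x axis, UMIs per 10000), with exact binomial 95% intervals as bars, CIA before control. The share is lower in each higher range of Spp1 in CIA, from 76.1% in the lowest to 28.3% in the highest, and likewise in control, from 73.6% to 21.9%; over C1q the CIA and control points cross.

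Monocytes lay at the high and the low end of class II. At 100 or more per 10000 lay 107 of 203 CIA monocytes (52.7%, 45.6 to 59.7) and 64 of 172 control monocytes (37.2%, 30.0 to 44.9), and under 10 lay 60 CIA (29.6%) and 81 control cells (47.1%). Between lay 17.7% of CIA and 15.7% of control monocytes, close to the 14.3% of CIA and 14.2% of control C1q-expressing macrophages and the 19.4% of CIA and 18.6% of control Spp1-low macrophages. The difference in high cells, 15.5 percentage points, rested on the gate. With marker limits doubled it was 27.1 points (61.2% of 85 CIA and 34.1% of 44 control cells). In the Leiden cluster holding most of the monocytes it was -0.40 points (47.2% of 180 CIA and 47.6% of 252 control cells).

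Class II was lower in each higher range of Fcnb. At 5 to 20 Fcnb UMIs per 10000 the class II median was 267 in CIA (80 cells) and 205 in control (66 cells). From 20 to 50 it was 218 in CIA (68 cells) and 11.8 in control (67 cells), and at 50 or more it was 7.47 in CIA (55 cells) and 3.61 in control (39 cells). In the middle range 61.8% of CIA cells (49.2 to 73.3) and 31.3% of control cells (20.6 to 43.8) were high.

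Low and high monocytes differed in other genes, given here as descriptions. S100a8, Hp and Clec10a were among the genes most strongly correlated with the class II level over these same cells. Their differences therefore follow from that correlation and are no separate support. S100a8, a calcium-binding protein of neutrophils and early monocytes, had a median of 13.8 per 10000 in CIA and 5.82 in control monocytes under 10 class II UMIs per 10000, and of 0 in CIA and 1.03 in control class II-high monocytes. Hp, haptoglobin, was seen in 78.3% of CIA and 76.5% of control low cells and in 15.0% of CIA and 32.8% of control high cells. Clec10a, a lectin of macrophages and dendritic cells, was seen in 10% of CIA and 7.41% of control low cells and in 43.0% of CIA and 45.3% of control high cells. Cd86, a co-stimulatory ligand for T cells, was seen in 10% of CIA and 6.17% of control low cells and in 29.9% of CIA and 20.3% of control high cells. Flt3, a dendritic cell receptor, was seen in 1 low and 2 high cells of each library. The median depth of control low monocytes was 7748 UMIs and of control high monocytes 8710, with 6206 and 6682 in CIA.

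Cycling cells, those with at least 8 UMIs per 10000 of 7 mitotic genes, had lower class II. Among Spp1-low macrophages the median was 14.6 in CIA (84 cells) and 56.2 in control (29 cells) for cycling cells, and 222 in CIA and 230 in control for the others. Among Spp1-high macrophages it was 20.5 in CIA (151 cells) and 5.47 in control (29 cells) for cycling cells, and 50.8 in CIA and 54.5 in control for the others. Cycling C1q-expressing macrophages had 121 in CIA (32 cells) and 63.1 in control (16 cells), and cycling monocytes 6.40 in CIA (13 cells) and 3.39 in control (20 cells), against 375 in CIA and 301 in control, and 165 in CIA and 35.1 in control, for the cells that were not cycling. Cycling cells were deeper in all but the control monocytes, where the median was 8139 UMIs for cycling cells and 8353 for the others.

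The gate of dendritic markers was small and mixed. It held 11 CIA and 24 control cells, of which Siglech, a receptor of plasmacytoid dendritic cells, was seen in 54.5% in CIA and 75% in control and Flt3 in 54.5% in CIA and 62.5% in control, while each of the other 6 markers was seen in at most 18.2%. Class II in these cells ran from 55.2 to 1122 between the quartiles in CIA and from 34.5 to 249 in control, and 5 CIA and 10 control cells were at 100 or more. The top cell was at 1640 in CIA and 1107 in control. The median was 85.9 in CIA and 71.0 in control, below the 359 in CIA and 287 in control of C1q-expressing macrophages. Over the summed UMIs of the gate the level was 646 in CIA and 320 in control. The same value was 363 in CIA and 335 in control for C1q-expressing macrophages. These sums rested on few cells: the top 2 CIA cells held 57.4% of the gate's class II UMIs and the top 3 control cells 62.3%.

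B-cell precursors were far below the macrophage gates and slightly above the stroma. The gate held 68 control cells and 1 CIA cell, so the libraries were not compared. Igll1, a part of the surrogate light chain, was seen in 94.1% of the control cells, Cd79b, a part of the B-cell receptor, in 92.6% and Pax5 in 8.82%. Their class II median was 3.59 per 10000 (quartiles 2.70 and 5.68, highest cell 21.4), against 3.08 in control endothelium (2.00 and 4.13) and 2.89 in control fibroblasts (1.86 and 4.02), so the quartile ranges overlapped. None of the 68 was at 100 or more, which allows a share of up to 4.41%. Cd74 was left in 58.8% of them after thinning (46.2 to 70.6; 88.2% before, at a median depth of 7233 UMIs), against 41.8% of control fibroblasts (39.6 to 44.0; 79.9% before, at 12837). At 5 or more class II UMIs per 10000 of thinned UMIs lay 51.5% of the precursors (39.0 to 63.8) and 34.1% of control fibroblasts (32.0 to 36.3), and before thinning 27.9% and 12.6%. Cd74 gave 44.8% of their member UMIs (38.8 to 50.8), the same within counting error as the 43.2% of control C1q-expressing macrophages.

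Endothelium and stroma carried few class II UMIs, in nearly the same mixture of members as macrophages. Cd74 was 43.8% of member UMIs in CIA and 44.5% in control endothelium and 43.7% in CIA and 45.8% in control fibroblasts, near the 42.0% in CIA and 43.2% in control of C1q-expressing macrophages. Cells at 10 or more per 10000 were 29 of 527 (5.50%) in CIA and 9 of 643 (1.40%) in control endothelium, and 54 of 2604 (2.07%) in CIA and 25 of 1921 (1.30%) in control fibroblasts. Their macrophage markers were a median of 1.54 per 10000 in CIA and 2.36 in control for such endothelial cells, against 0.894 in CIA and 0.415 in control for all endothelial cells. These few cells held 31.1% of the class II UMIs of endothelium in CIA and 10.1% in control, and 25.2% in CIA and 18.9% in control of those of fibroblasts.

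The CIA to control ratio of summed UMIs was computed for the 5 measured members in 7 gates, and a gene was called where the ratio was at least 2-fold and its exact interval lay wholly beyond 1.5-fold. In C1q-expressing macrophages 0 of 5 members were called, beside 0.619% of the 7104 measured genes called higher in CIA and 3.52% called lower. The counts were also 0 of 5 in Spp1-high macrophages (0.273% of all genes higher, 2.63% lower), Spp1-low macrophages (0.342% and 3.4%), monocytes (0.929% and 5.42%), endothelium (0.292% and 1.52%), fibroblasts (0.213% and 1.11%) and Prg4-high lining cells (1.06% and 1.95%). With called doublets kept, 5 of 5 were called higher in endothelium, and with marker limits doubled 3 of 5 were called higher in monocytes.

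Below the call, the ratios differed by gate. Cd74 was at 1.06 (1.05 to 1.06) in C1q-expressing macrophages, 1.28 (1.25 to 1.30) in Spp1-high macrophages, 0.899 (0.890 to 0.909) in Spp1-low macrophages and 1.28 (1.25 to 1.32) in monocytes. RT1-Da was at 1.17 (1.15 to 1.19), 1.44 (1.40 to 1.49), 0.982 (0.965 to 0.998) and 1.53 (1.47 to 1.59) in the same gates. RT1-Db1 was at 1.09, 1.43, 0.923 and 1.53, RT1-Ba at 1.10, 1.49, 0.941 and 1.53, and RT1-Bb at 1.05, 1.45, 0.957 and 1.54. The median log2 ratio of the 5 was 0.13, 0.53, -0.09 and 0.62, beside 0.13, 0.06, 0.12 and 0.02 over all measured genes of each gate. All 5 ratios of Spp1-low macrophages lay above 1 with marker limits doubled, where the log2 values ran from 0.03 to 0.15, so their direction depended on the gate. Lyz2, which no gate used, was at 1.2 to 1.35 in these 4 gates.

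In endothelium Cd74 was at 1.54 (1.43 to 1.66), RT1-Da at 1.66 (1.47 to 1.87), RT1-Db1 at 1.66 (1.49 to 1.86), RT1-Ba at 1.58 (1.34 to 1.86) and RT1-Bb at 1.36 (1.17 to 1.57). In fibroblasts the 5 ratios ran between 1.29 and 1.5. In Prg4-high lining cells they ran between 0.960 for Cd74 and 1.08 for RT1-Bb. Without the cell with most class II UMIs of each library all 5 lay above 1 in lining cells: Cd74 at 1.13 (1.06 to 1.21), RT1-Da at 1.23, RT1-Db1 at 1.39, RT1-Ba at 1.38 and RT1-Bb at 1.28, so the direction of Cd74 there rested on single cells. Lyz2 was higher in CIA by more than any member in these gates, at 2.19 in endothelium, 1.91 in fibroblasts and 1.66 in lining cells. How much of the difference in endothelium and stroma came from free RNA was not tested.

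**Figure D5:**
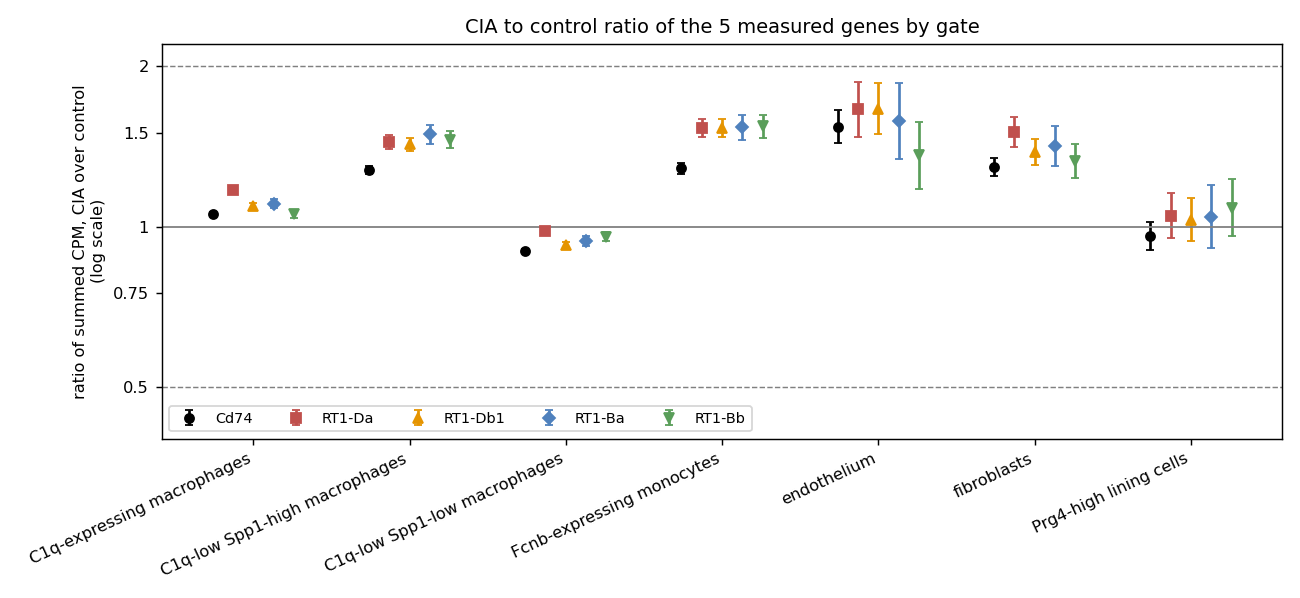
CIA over control ratio of summed UMIs (log axis) for the 5 measured members in 7 gates, with exact 95% intervals for counting error as bars and dashed lines at 0.5 and 2. No point reaches a dashed line. The highest points are RT1-Da and RT1-Db1 in endothelium, at 1.66, and the points of Spp1-low macrophages lie under 1, a side they leave with marker limits doubled.

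Over whole libraries, the share of macrophages and monocytes differed more than the class II level within them. The 7 genes had 81.4 UMIs per 10000 over all kept CIA cells and 60.5 over all kept control cells, a ratio of 1.35. The 4 macrophage and monocyte gates held 36.9% of CIA and 21.4% of control cells, a ratio of 1.73, and 89.1% of CIA and 82.2% of control member UMIs. Within the 4 gates pooled the level was 212 in CIA and 226 in control, a ratio of 0.936, although it was higher in CIA in 3 of the 4 gates taken singly. Those were C1q-expressing macrophages with 363 in CIA and 335 in control, Spp1-high macrophages with 106 in CIA and 77.9 in control, and monocytes with 231 in CIA and 163 in control, while Spp1-low macrophages had 242 in CIA and 261 in control. Spp1-high macrophages, the lowest of the 4, were 1215 of 3107 cells in CIA and 218 of 1143 in control. Of all cells at 100 or more, 1733 of 1872 (92.6%) in CIA and 635 of 767 (82.8%) in control lay in these gates, and cells that met no gate were 76 in CIA and 98 in control.

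Ciita, the coactivator of class II genes, was counted mostly in class II-high cells. Over the 4 macrophage and monocyte gates a Ciita UMI was seen in 194 of 1733 high cells (11.2%) in CIA and in 95 of 635 (15.0%) in control. Cells from 10 to 100 had it in 4.26% in CIA and 6.84% in control, and cells under 10 in 6 of 623 (0.963%) in CIA and 3 of 274 (1.09%) in control. In control Spp1-high macrophages the shares of high and middle cells were nearly equal, at 13.9% of 72 and 13.4% of 82 cells. In every other gate and library of the 4 gates the middle share was lower than the high share. The high cells were not deeper in CIA, with a median of 9002 UMIs against 11245 in cells under 10, and were deeper in control, with 12647 against 11258.5. In endothelium Ciita was seen in 0.190% of CIA cells (median depth 8825) and 0.311% of control cells (11381). Between the libraries Ciita was at 1.14 (0.791 to 1.67) in C1q-expressing macrophages, an interval that covers equal levels.

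RT1-DOa, a chain of the inhibitor of RT1-DM, showed the same pattern, in 8.60% of high, 0.399% of middle and 0.161% of low cells in CIA and in 13.5%, 0% and 0.365% in control. RT1-DOb, its partner, was seen in 4.10% of high, 0.799% of middle and 1.61% of low cells in CIA and in 6.30%, 0.855% and 1.46% in control. Rfx5, a subunit of the X box factor, was seen in 4.96% of high and 6.58% of low cells in CIA and in 8.82% of high and 7.66% of low cells in control. Nfyc, a subunit of the Y box factor, was seen in 30.3% of high and 38.0% of low cells in CIA and in 36.7% of high and 41.2% of low cells in control. Pooled over the 4 gates, cells at 10 to 100 and under 10 thus differed from high cells in the share with Ciita and RT1-DOa. For Ciita the middle cells of control Spp1-high macrophages were the exception. Rfx5 and Nfyc differed less and, in CIA, were seen in a smaller share of high cells than of low cells.

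Among the other genes of the pathway, most of those past the size rule between CIA and control were signalling and co-stimulation genes that were lower in CIA. Of the 8 class II transcription genes, 5 were measured in C1q-expressing, 6 in Spp1-high and 7 in Spp1-low macrophages and 1 in monocytes, and 0 were called in any. Over all measured genes of these gates 0.619%, 0.273%, 0.342% and 0.929% were called higher and 3.52%, 2.63%, 3.4% and 5.42% lower. Of the 8 lysosomal processing genes all were measured, and 1 was called, Lgmn, a protease that starts the cutting of antigens, at 2.54 (2.22 to 2.90) in monocytes. Cd86 was at 2.36 (1.56 to 3.64) in monocytes, and in the 3 macrophage gates it was between 1.24 and 1.53 and not called. The class I list had 0 called of 7, 7, 7 and 6 measured genes, and the surface turnover list 0 of 2, 2, 2 and 1. Of the other class II genes, RT1-DOa alone was measured, in C1q-expressing and Spp1-low macrophages, and was not called.

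Cd83, a surface protein known in mouse to keep class II from being removed from the membrane, was lower in CIA in each of the 4 gates, at 0.234 (0.221 to 0.247) in C1q-expressing, 0.280 (0.264 to 0.296) in Spp1-high and 0.312 (0.295 to 0.329) in Spp1-low macrophages and 0.486 (0.435 to 0.543) in monocytes. It was also lower in fibroblasts, at 0.250, and in endothelium, at 0.375, and was called lower in Prg4-high lining cells, at a log2 ratio of -1.62. Cd274, the inhibitory ligand PD-L1, was at 0.258, 0.295 and 0.171 in the 3 macrophage gates. Of the co-stimulation list, 2 of 4, 2 of 5 and 2 of 4 measured genes were called lower in the macrophage gates, beside 3.52%, 2.63% and 3.4% of all measured genes, and its median log2 ratio was -1.07, -0.73 and -0.96, beside 0.13, 0.06 and 0.12 over all genes.

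Of the interferon-gamma list, whose pathway induces class II in macrophages, 8 of 9 genes were measured in each of these gates. Irf1, a transcription factor induced by interferon, was called lower at 0.449, 0.365 and 0.442 in the macrophage gates, and Socs1, an inhibitor of the same pathway, at 0.213, 0.272 and 0.261, and at 0.398 in monocytes. The list median was -0.03, 0.03 and -0.14 in the macrophage gates and -0.23 in monocytes. Ifng itself had no UMI in C1q-expressing macrophages of either library. No gate of T cells was formed, so this says nothing on Ifng made by other cells. Of 3 measured genes of the Mif receptor list, which Cd74 takes part in at the surface, Cxcr4 was called lower in Spp1-low macrophages, at 0.434, and in monocytes, at 0.486. Outside these gates, Irf1 and Socs1 were also called lower in endothelium, and Cxcr4 in Prg4-high lining cells. Neither Irf1 nor Socs1 was called in fibroblasts or lining cells. Lower values in CIA were thus not particular to macrophages and monocytes. In C1q-expressing macrophages, lower Cd83, Irf1 and Socs1 in CIA stood beside member ratios near 1.

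The genes most like the class II genes in level over cell types were named by rule. Over 17 sums of a gate in a library with at least 50 cells, the Pearson correlation of log2(CPM + 10) with the mean of the 7 members was 0.99 for AABR07062183.1, AABR07006310.1, Ly49si1, Gpr160, Clec4a1, Itgal, Aif1 and Fam105a. Aif1 was also a gate marker, and these sums share the 2 libraries. Within cells the coefficient was taken in each library and genes were ranked by the weaker of the pair. In C1q-expressing macrophages (897 CIA and 345 control cells) likeness was weak, with Pld4 the highest at 0.289 in CIA and 0.337 in control and Anxa5 the lowest at -0.333 in CIA and -0.345 in control. In monocytes (203 CIA and 172 control cells, a ranking added after the data had been seen) Tmem176b was highest, at 0.568 in CIA and 0.624 in control. The lowest were LOC24906, at -0.601 in CIA and -0.575 in control, and Hp, at -0.657 in CIA and -0.564 in control. Over all 4 gates Tmem176b had a median of 10.5 per 10000 in high and 0.519 in low cells in CIA. In control the medians were 9.25 and 0.498. Tmem176b was named by its correlation with the class II level in part of these cells, so this split is no separate support.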

How the data were processed

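The authors deposited raw UMI counts per gene and cell, 1 matrix per library, whose values were whole numbers. Per the labels' protocols the libraries were made with a Chromium 3' kit, and per the submitters' processing notes the build was mRatBN7.2; the sources used here give no aligner, cell calling or strand setting. Cells under 200 genes or over 20% mitochondrial UMIs were dropped, as were Scrublet calls (166 CIA, 62 control; scanpy 1.11.5). Gates used UMIs per 10000 of marker genes, with limits, ranges and motif window set on these data, and cells of several lineages were set aside. Shares used exact binomial intervals, and ratios of summed UMIs exact conditional intervals, for genes with at least 100 UMIs. The rule was tried on simulated counts with counting error only, so its behaviour under differences between cells or libraries was not tested. With 1 library per group no test was made. Thinning drew 4000 UMIs per cell. Named genes were all members, genes of lists past the size rule, and the closest in likeness. Members and lists were chosen with earlier results of these data known. Alternatives were Leiden clusters, marker limits doubled, doublets kept, other scalings (edgeR 4.0.16) and others given at the end.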

Additional observations from a re-analysis of the deposited data

Results flagged for a closer look

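Cd74 lay on opposite sides of 1 in different gates: its CIA over control ratio was 1.28 in Fcnb-expressing monocytes and 0.899 in C1q-low Spp1-low macrophages. The difference between these ratios was not tested, since each group was 1 library, and the second lay above 1 with marker limits doubled.

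In C1q-expressing macrophages the median class II level of the highest range of C1q over that of the lowest was 2.45 in CIA and 0.654 in control. The medians thus ran opposite ways, and this difference was not tested. In control the shares of high cells in these ranges had overlapping intervals. The lowest and highest ranges held 97 and 194 cells in CIA and 40 and 44 in control.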

How the results depend on the processing

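Medians, shares of high cells and ratios by gate were recomputed with Leiden clusters, doubled marker limits, doublets kept, other scalings and cell filters, with removal of the top cell, and, added after the data had been seen, without cycling cells or without cells at 10 or more class II UMIs per 10000, a filter on the outcome itself. Of 345 values of a gene in a gate, 335 kept their sign or moved by under 0.1 on the log2 scale, and 10 crossed. For Spp1-high macrophages, clusters gave a log2 ratio of medians of 1.40 (0.09 with gates) and a share difference of 12.3 points, and doubled limits 11.8 points (2.86 with gates). For monocytes the share difference was -0.40 points with clusters and 27.1 with doubled limits (15.5 with gates), and 3 members were called with doubled limits. With doublets kept, 5 members were called in endothelium. The cause of these shifts was not tested. No Leiden cluster was led by C1q-low Spp1-low macrophages, so that alternative gave no value for them. Leaving out a replicate was not possible with 1 library per group. No paired analysis was possible because each group was 1 library. Correlations, marker ranges, coefficients of variation, cycling and Ciita shares were not recomputed. RT1-DMa and RT1-DMb had too few UMIs for any ratio, for a reason that was not tested.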
